A study of Mus musculus with 6 samples.

Results

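The pairs described here are the 3′ ends of genes whose RNA can stop at either of a pair of poly(A) sites more than 1500 bases apart. They were taken from protein-coding genes of GENCODE M21 (mouse genome build mm10) that had exactly 2 measured sites in a 3′ untranslated region (UTR) on their own strand. Each site had to hold at least 5% of the gene's tags over all 12 count columns, and both together had to average at least 20 tags per stage. Of 2213 pairs that met these tag rules, 546 lay over 1500 bases apart, 943 lay 300 to 1500 bases apart and 724 lay under 300 bases apart. The whole series gave 6266 pairs of sites, 1 per gene, and these served as the background. Members were chosen by their tag totals over all libraries and by spacing, so how many tags a pair had is a description only. The change of site choice with stage was not part of the rule.

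The tissue was retina of C57BL/6J mice, an inbred strain, with no treatment or altered allele named, at embryonic days E13.5, E15.5 and E18.5, at birth (P0) and at postnatal days P6 and P21. PA-seq, which sequences the 3′ ends of polyadenylated RNA from an oligo(dT) primer, counted tags at each site. Each stage was 1 labelled sample, deposited as 2 columns named R1 and R2 whose meaning is not given in the sources used here. They were added and not used as replicates, so no value below has a replicate. The tests below asked only whether site choice followed stage order over 6 libraries of 3286158 to 4656153 tags. How many animals gave a sample is not given in the sources used here.

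A poly(A) site is where a nascent transcript is cut and its tail is added, by a complex that reads a six-letter signal, most often AATAAA, shortly upstream of the cut. When a gene has a pair of sites in its last exon, the proximal one gives a short 3′ UTR and the distal one a long 3′ UTR with the same protein. Long 3′ UTRs carry additional stretches that microRNAs and RNA-binding proteins can read, and neural tissue is known for using distal sites. When the sites lie in different last exons, splicing is involved too, and the protein's end can differ.

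The label tandem holds for most of the members but not for all. Both 3′ edges lay in 1 annotated exon in 401 of the 546 pairs, where the median spacing was 2360 bases and the widest was 9453 bases. In the other 145 pairs the edges lay in 2 exons, with a median genomic spacing of 11254 bases that includes introns and a maximum of 461916 bases. These kinds are kept apart below. There were 290 pairs on the plus strand and 256 on the minus strand. In 394 genes these were the only measured sites, and in 5 pairs a site also lay in the UTR of another gene. The pairs held 120 to 12452 tags, with a median of 1033, and 481 of them had at least 20 tags in every library.

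The last 30 annotated bases before each cut are printed for 7 genes, because the results turn on the use of these ends. Of pairs in 1 exon that passed the test with at least 20 tags in every library, 5 had the largest rises in distal share. The other 2 are the only long pairs that passed the test toward the proximal site. The sequences are from GENCODE M21 transcripts on mm10, are read 5′ to 3′ on the gene's strand, and have the poly(A) signal in capitals.
Zdhhc18 distal site, chr4:133605305-133605334, minus strand: agaAATAAAgacctccccccttcatcttgc
Zdhhc18 proximal site, chr4:133606993-133607022, minus strand: tttgtAATAAAgcttctgttttaagagctg
Ebna1bp2 distal site, chr4:118627744-118627773, plus strand: agccccaatgaAATAAAtgttgtgcttata
Ebna1bp2 proximal site, chr4:118625951-118625980, plus strand: ttattttAATAAAttaaacttatggaagaa
Mtr distal site, chr13:12182718-12182747, minus strand: taaccAATAAAgaaaaagtgaaatgctatt
Mtr proximal site, chr13:12186538-12186567, minus strand: tgcctcatatATTAAAaatgattctgaaaa
Arih2 distal site, chr9:108602945-108602974, minus strand: ttattcaaAATAAActcattttctgattat
Arih2 proximal site, chr9:108604677-108604706, minus strand: attaaAATAAAttggcattggagtgcttca
Bcat1 distal site, chr6:144993835-144993864, minus strand: tctgttgccAATAAAacaactgaaaacgta
Bcat1 proximal site, chr6:144999155-144999184, minus strand: atgccaAATAAAgggtcaggttgggagata
Gnas distal site, chr2:174346711-174346740, plus strand: ttaaaaaatcAATAAAaattaaaaatgagc
Gnas proximal site, chr2:174338054-174338083, plus strand: gataAATAAAactctctgcatgtttcagca
Flvcr1 distal site, chr1:191005848-191005877, minus strand: acttaaAATAAAtttatttttttagtgcta
Flvcr1 proximal site, chr1:191024922-191024951, minus strand: gtgaatgttcAATAAAtgctccggtgataa

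All 7 distal ends and 6 of the 7 proximal ends hold AATAAA. The exception is the proximal end of Mtr, which holds ATTAAA, the commonest variant. Apart from Mtr, the ends of these genes share the letters of the signal.

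Across the 546 pairs the distal site held AATAAA within 40 bases of the cut in 424 (77.7%), against 298 proximal sites (54.6%). The variant ATTAAA was the best match at 79 distal sites (14.5%) and 90 proximal sites (16.5%). Another of 10 single-base variants was found at 29 distal sites (5.31%) and 99 proximal sites (18.1%). No listed signal was found in this window at 14 distal sites (2.56%) and 59 proximal sites (10.8%). The signal began a median of 22 bases before the cut at both ends. In pairs 300 to 1500 bases apart AATAAA stood at 64.9% of distal and 50.6% of proximal sites, and in pairs under 300 bases apart at 58.1% and 49.9%. The gap between distal and proximal ends was thus widest in the long pairs, as a count without a test.

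**Figure D1:**
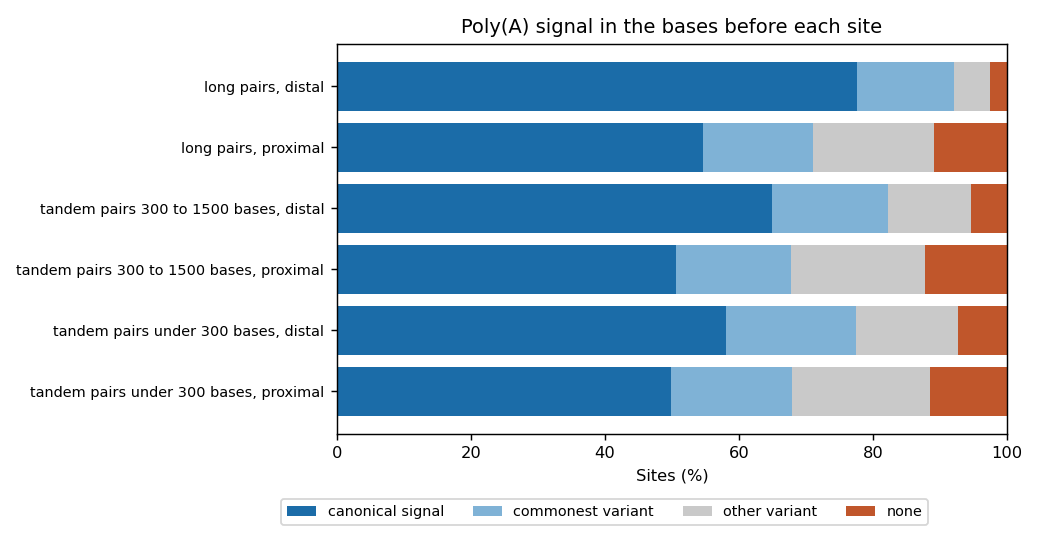
Share of sites (percent, horizontal axis) whose best poly(A) signal within 40 bases of the cut was canonical (AATAAA), the commonest variant (ATTAAA), another variant or none, for the distal and the proximal sites of pairs in 3 spacing classes. The canonical share is 77.7% at the distal and 54.6% at the proximal sites of the 546 long pairs.

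A-rich sequence downstream of a cut can prime oligo(dT) inside a transcript. In the 20 bases after the cut, a run of 6 A, or 10 bases with 7 A, stood at 3 of 93 distal sites (3.23%) and 24 of 452 proximal sites (5.31%) that had annotated sequence there. Without such pairs, 22 long pairs passed the test given below, in place of 23. Sites with no annotated sequence there were kept, so most distal sites were not checked.

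The stretch that only the long form carries was searched for short motifs in the 401 pairs with 1 exon, in the first 1500 bases after the proximal site on the transcript strand. The comparison was the first 1500 bases of 6969 other 3′ UTRs. The AU-rich element core ATTTA stood in 82.3% of long stretches and 84.0% of the other UTRs. TGTANATA, the letters known for Pumilio proteins, stood in 22.4% and 25.1%. Matches to bases 2 to 8 of a microRNA came at like rates. They were found in 9.73% and 9.34% for let-7a (CTACCTC), 12.7% and 13.1% for miR-9 (ACCAAAG), 10.47% and 9.93% for miR-183 (GTGCCAT), 9.98% and 8.55% for miR-96 (GTGCCAA) and 10.47% and 11.6% for miR-182 (TTGCCAA). miR-183, miR-96 and miR-182 are 1 cluster of sensory organs including photoreceptors, and the seeds of miR-96 and miR-182 differ only in their last letter. The long stretches averaged 55.1% A or T and the other UTRs 56.7%. Seed sequences were from RefSeq. A match is a run of letters, not a site of binding, and by these counts the long stretches held the motifs about as often as other UTRs.

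Genes of cells from outside the retina were not at equal levels in the libraries. All 6 lens genes summed to 1525 CPM (a tag count scaled to the size of the library) at E15.5 and 1628 CPM at P0, and to 162 to 646 CPM in the other 4 libraries. The 4 red blood cell genes summed to 766 CPM at E13.5 and 111 to 401 CPM elsewhere. Of these, the embryonic globins Hbb-y and Hba-x were at 337 and 160 CPM at E13.5, and at 10.9 and 3.54 CPM at P21. Hbb-bs was at 206 CPM at E13.5, 298 CPM at E15.5 and 208 CPM at P21. The sum thus does not show how much blood each library held. Markers of retina were measured in every library. The 6 progenitor genes summed to 861 CPM at P21, against 3038 CPM at E13.5, and the 4 bipolar cell genes to 807 CPM, against 73.5 CPM. None of these lists had a measured gene at 0, and Rpe65 of the pigment epithelium was not measured. The part of this changing cell makeup in the values below was not tested.

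In the middle of the distribution, the distal end was the more used one at every stage, and its share was higher from E18.5 on. The median distal share of the 546 pairs, that is the percentage of the tags at a pair that fell on its distal site, was 65.9% at E13.5, 65.6% at E15.5 and 68.04% at E18.5, then 68.7% at P0, 70.3% at P6 and finally 71.8% at P21. Over all 6266 pairs the median was 57.8% at E13.5, 57.6% at E15.5 and 59.4% at E18.5, then 60% at P0, 60.7% at P6 and finally 61.8% at P21. The long pairs stood higher at each stage and both medians were higher at P21 than at E13.5. The middle of the long pairs was broad, with quartiles of 38.8% and 88.6% at P21, against 30% and 85.99% at E13.5. Over all stages 354 of the 546 pairs (64.8%) had more tags at the distal than at the proximal site, against 59.4% of all pairs. For pairs 300 to 1500 bases apart this share was 63.4%, and for pairs under 300 bases apart 62.6%, so the long pairs were close to them. In a bulk tissue, fewer cells of a type and less RNA per cell cannot be told apart, here or in any value below.

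Among pairs in 1 exon the median distal share was 65.95% at E13.5, 64.9% at E15.5 and 68.5% at E18.5, then 69.5% at P0, 70.3% at P6 and finally 73.8% at P21. Among pairs in 2 exons it was 65% at E13.5, 68.2% at E15.5 and 67.6% at E18.5, then 68.03% at P0, 70.1% at P6 and finally 66.7% at P21, which shows no steady order. Pairs 300 to 1500 bases apart had medians of 67.3% at P21, against 62.7% at E13.5, and pairs under 300 bases apart had 64.4%, against 63.2%. The difference at P21 from E13.5 was thus greater in the long pairs in 1 exon than in both classes of shorter spacing, as medians without a test. In the long pairs in 2 exons this difference of medians was smaller than in pairs 300 to 1500 bases apart. Taken pair by pair, with at least 20 tags in both libraries, the order was the other way. The median change of a pair was 3.38 points in the long pairs in 2 exons and 2.61 points in pairs 300 to 1500 bases apart. It was 4.43 points in the long pairs in 1 exon and 0.34 points in pairs under 300 bases apart. With the tags of all long pairs summed, the distal share was 63.4% at P21, against 56.8% at E13.5.

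**Figure D2:**
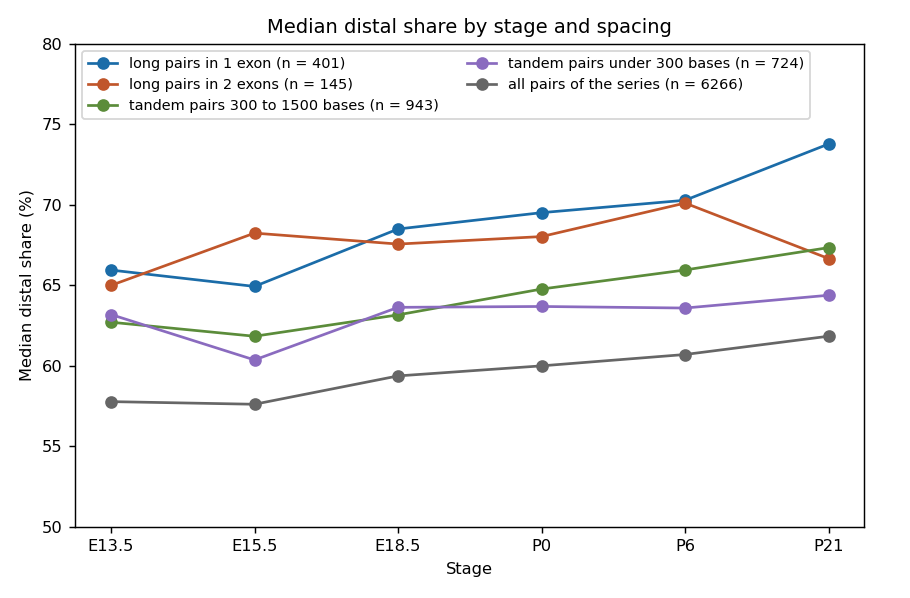
Median distal share (percent, vertical axis) at each stage for the long pairs in 1 exon, the long pairs in 2 exons, the tandem pairs of shorter spacing and all pairs of the series. The median of the long pairs in 1 exon reaches 73.8% at P21, and that of pairs under 300 bases apart stays between 60.4% and 64.4%.

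Median differences between neighbouring stages were small, though single pairs moved by more in both directions. Counting pairs with at least 20 tags at both, the median change of the long pairs was 0.288 points for E15.5 against E13.5, 1.19 points for E18.5 against E15.5, 1.33 points for P0 against E18.5, 0.500 points for P6 against P0 and 1.38 points for P21 against P6. Over all pairs of the series the same medians were 0.113, 0.427, 0.585, 0.410 and 0.785 points. Falls were most frequent at P0 against E18.5. There 67 of 515 long pairs (13.0%) were at least 10 points higher and 58 (11.3%) at least 10 points lower, against 12.8% and 11.3% of all pairs. For P21 against P6 these shares were 14.9% and 6.49% of the long pairs, against 10.4% and 6.75% of all pairs. The columns R1 and R2 of a stage differed by a median absolute value of 2.40 to 3.21 points in the distal share of a single long pair with at least 100 tags. The median signed difference, R1 minus R2, was -0.40 to 1.08 points over the stages. Both columns belong to 1 labelled sample, so these differences do not measure the spread between samples. The pairs counted also differ, with at least 20 tags for the steps and at least 100 tags for the columns. Whether a step exceeds the spread between samples could not be tested.

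From the first to the last stage, 60 of 499 long pairs with at least 20 tags in both libraries had a distal share at least 20 points higher at P21 than at E13.5 (12.02%), and 15 had one at least 20 points lower (3.01%). Over all 5786 such pairs of the series the shares were 7.07% higher and 2.77% lower. In 1 exon the counts were 37 higher and 5 lower of 368, and in 2 exons 23 higher and 10 lower of 131. Of 872 pairs 300 to 1500 bases apart, 32 were higher and 5 lower, and of 659 pairs under 300 bases apart, 11 were higher and 8 lower. These are comparisons of 2 libraries with no replicate check. Distal share was higher at each stage than at the one before in 14 long pairs (2.56%) and in 96 of all pairs (1.53%).

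Tested over all 6 stages, 21 long pairs moved toward the distal site and 2 toward the proximal site, and 523 did not pass. The test was edgeR's diffSpliceDGE, fitted to all 6266 pairs with stage order as 1 linear term, at a Benjamini-Hochberg adjusted p of 0.05 or less. The long pairs that passed toward the distal site were 3.85%, against 1.85% of all pairs, and those toward the proximal site were 0.366%, against 0.766% of all pairs. At an unadjusted p under 0.05 there were 92 long pairs toward the distal site (16.8%, against 11.7% of all pairs) and 15 toward the proximal site (2.75%, against 4.1% of all pairs). The median fitted change of the log2 ratio of distal to proximal tags was 0.46 in the long pairs, with 70.0% above 0, and 0.24 over all pairs, with 61.9% above 0. The count depended on single libraries: without E13.5 no long pair passed (72 toward the distal and 11 toward the proximal site at an unadjusted p under 0.05, edgeR), and without P21 4 did, without P6 10 and without E15.5 12. Without both E15.5 and P0, the libraries with the most lens tags, 6 did, in a fit of 4 libraries. In an edgeR fit with a term for each library, 9 long pairs passed without E13.5. All 23 pairs kept their direction and an unadjusted p under 0.05 in each of the fits by stage order. These fits reuse the tags by which the 23 pairs were chosen, so they are not separate evidence.

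By kind, 13 of the 401 pairs in 1 exon passed toward the distal site and 0 toward the proximal site (64 and 1 at an unadjusted p under 0.05, edgeR). A fit by edgeR with a term for each library, chosen after seeing the data, gave 19 and 0 of the 401. Over all 6266 pairs that fit gave 254 (4.05%) and 93 (1.48%). With it, the distal share of the pairs in 1 exon thus lay near that of all pairs. In 2 exons 8 of 145 passed toward the distal and 2 toward the proximal site. Of the 943 pairs 300 to 1500 bases apart, 5 moved toward the distal site and 1 toward the proximal site. Of the 724 pairs under 300 bases apart none passed in edgeR's diffSpliceDGE test, 19 and 5 had an unadjusted p under 0.05, and 2 and 2 passed with the library term. Within the long pairs the calls were spread over the spacings, with 6 of 144 toward the distal site at up to 2000 bases, 5 of 153 above that and up to 3000, 4 of 114 above that and up to 5000, and 6 of 135 above 5000. Both proximal calls lay above 5000 bases. Whether the classes differ was not tested.

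**Figure D3:**
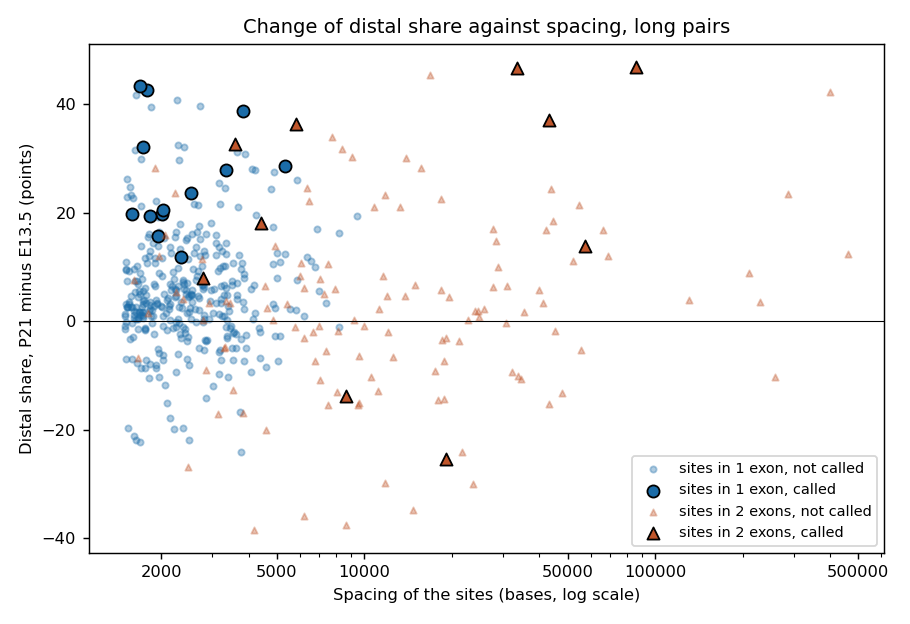
Distal share at P21 minus that at E13.5 (percentage points, vertical axis) against the distance between the sites in bases (log horizontal axis) for the 499 long pairs with at least 20 tags in both libraries, with pairs in 1 exon as circles, pairs in 2 exons as triangles and those that passed the test in dark outline. The circles that passed all lie above 0, and the 2 triangles that passed below 0 lie above 5000 bases.

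Among the pairs in 1 exon, Zdhhc18, which encodes a palmitoyltransferase, had the largest rise in distal share among those that passed with at least 20 tags in every library (chr4, minus strand, 3′ edges at 133605305 (distal) and 133606993 (proximal), 1688 bases apart). Its distal share was 5.41% at E13.5, 11.1% at E15.5 and 15.2% at E18.5, then 22.96% at P0, 29.7% at P6 and finally 48.7% at P21. It rose at every step, and the 95% Wilson interval was 43.2% to 54.3% at P21, against 3.60% to 8.05% at E13.5. Intervals cover counting error only, since tags were amplified and are not independent molecules. The log2 distal to proximal ratio changed by 3.65 ± 0.50 (SE, adjusted p = 0.00342, edgeR) over the 5 steps. The distal site was at 41.1 CPM at P21, against 5.99 CPM at E13.5, and rose by 2.77 ± 0.39 (SE, adjusted p = 0.003, edgeR) in log2 level. The proximal site was at 43.3 CPM, against 105 CPM, and did not pass (adjusted p = 0.0778, edgeR). Averaged over the tags of the pair, the UTR ran 822 bases past the proximal site at P21, against 91.2 bases at E13.5.

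Ebna1bp2, a nucleolar protein of ribosome assembly, switched its more used end (chr4, plus strand, 3′ edges at 118627773 (distal) and 118625980 (proximal)). Its distal share was 16.8% at E13.5, 26.1% at E15.5 and 35.7% at E18.5, then 42.6% at P0, 44.6% at P6 and finally 59.4% at P21. This was a rise at every step, and the ratio changed by 2.61 ± 0.38 (SE, adjusted p = 0.00445, edgeR). Here both sites passed, with the distal one rising to 82.6 CPM at P21, against 24.8 CPM at E13.5, and the proximal one falling to 56.4 CPM, against 123 CPM (adjusted p = 0.00832 and 0.0277, edgeR). The gene's total changed little, by -0.08 ± 0.22 (SE, adjusted p = 0.792, edgeR), which did not pass. With 1793 bases between the sites, the mean UTR ran 1065 bases past the proximal site at P21, against 301 bases at E13.5.

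Mtr, the methionine synthase that remakes methionine from homocysteine, also changed its major end (chr13, minus strand, 3′ edges at 12182718 (distal) and 12186538 (proximal), 3820 bases apart). The distal share was 40.8% at E13.5, 40.4% at E15.5 and 54.9% at E18.5, then 55.5% at P0, 71.3% at P6 and finally 79.6% at P21. It was level between the first stages and higher at each later one, and the ratio changed by 2.59 ± 0.47 (SE, adjusted p = 0.0127, edgeR). Its proximal site, the one with ATTAAA in the printed sequence, fell by 1.80 ± 0.37 (SE, adjusted p = 0.0112, edgeR) in log2 level. At the distal site the change was 0.79 ± 0.34 (SE, adjusted p = 0.123, edgeR), which did not pass.

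Arih2, a ubiquitin ligase, had a distal share of 53.3% at E13.5, 64.4% at E15.5 and 71.2% at E18.5, then 81.5% at P0, 83.97% at P6 and finally 85.3% at P21 (chr9, minus strand, 3′ edges at 108602945 (distal) and 108604677 (proximal)). Most of the difference had appeared by P0, and the ratio changed by 2.47 ± 0.40 (SE, adjusted p = 0.0069, edgeR). Bcat1, the cytosolic enzyme that takes the amino group off branched-chain amino acids, had the widest spacing of this group at 5320 bases (chr6, minus strand, 3′ edges at 144993835 (distal) and 144999155 (proximal)). Its distal share was 15.7% at E13.5, 21.8% at E15.5 and 26.3% at E18.5, then 42.5% at P0, 44.9% at P6 and finally 44.4% at P21. The values fall into lower prenatal and higher postnatal ones, with the step at P0, and the ratio changed by 2.33 ± 0.35 (SE, adjusted p = 0.0049, edgeR). In both genes the distal site rose and the proximal site did not pass, with adjusted p values of 0.00873 and 0.0539 for Arih2 and 0.006 and 0.0932 for Bcat1 (edgeR). The tags of Bcat1 at its distal site numbered 149 at E13.5, 231 at E15.5 and 323 at E18.5, then 381 at P0, 592 at P6 and finally 461 at P21. At its proximal site they numbered 798 at E13.5, 828 at E15.5 and 904 at E18.5, then 515 at P0, 726 at P6 and finally 578 at P21, so the proximal end stayed the larger one.

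The other 8 pairs in 1 exon that passed had smaller differences, of 11.9 to 27.8 points. Sart1, a spliceosome protein, had a distal share of 26.5% at P21, against 2.92% at E13.5, with most of the rise at the last step, where the P6 share was 11.6%. Zzz3, of a histone acetyltransferase complex, had 59.9% at P21, against 32.2% at E13.5. Aldh7a1, an aldehyde dehydrogenase of lysine breakdown, had 32.5% at P21, against 12.02% at E13.5. For the uncharacterized gene 1110008P14Rik it was 27.7% at P21, against 7.88% at E13.5. Of these 4, Zzz3 alone had most of its tags at the distal end at P21. The RNA-binding protein vigilin, encoded by Hdlbp, had 68.7% at P21, against 49.4% at E13.5. Minos1, of the complex that shapes mitochondrial cristae, had 26.6% at P21, against 10.9% at E13.5. Ube2j1, a ubiquitin-conjugating enzyme of the endoplasmic reticulum, had 91.1% at P21, against 79.3% at E13.5. Ptgfrn, an immunoglobulin-family membrane protein, had 92.7% at P21, against 72.9% at E13.5, on as few as 30 tags in a library. In 6 of these 8 genes the distal end held under 50% of the tags at E13.5, and in Ptgfrn and Ube2j1 it was the major end throughout.

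**Figure D4:**
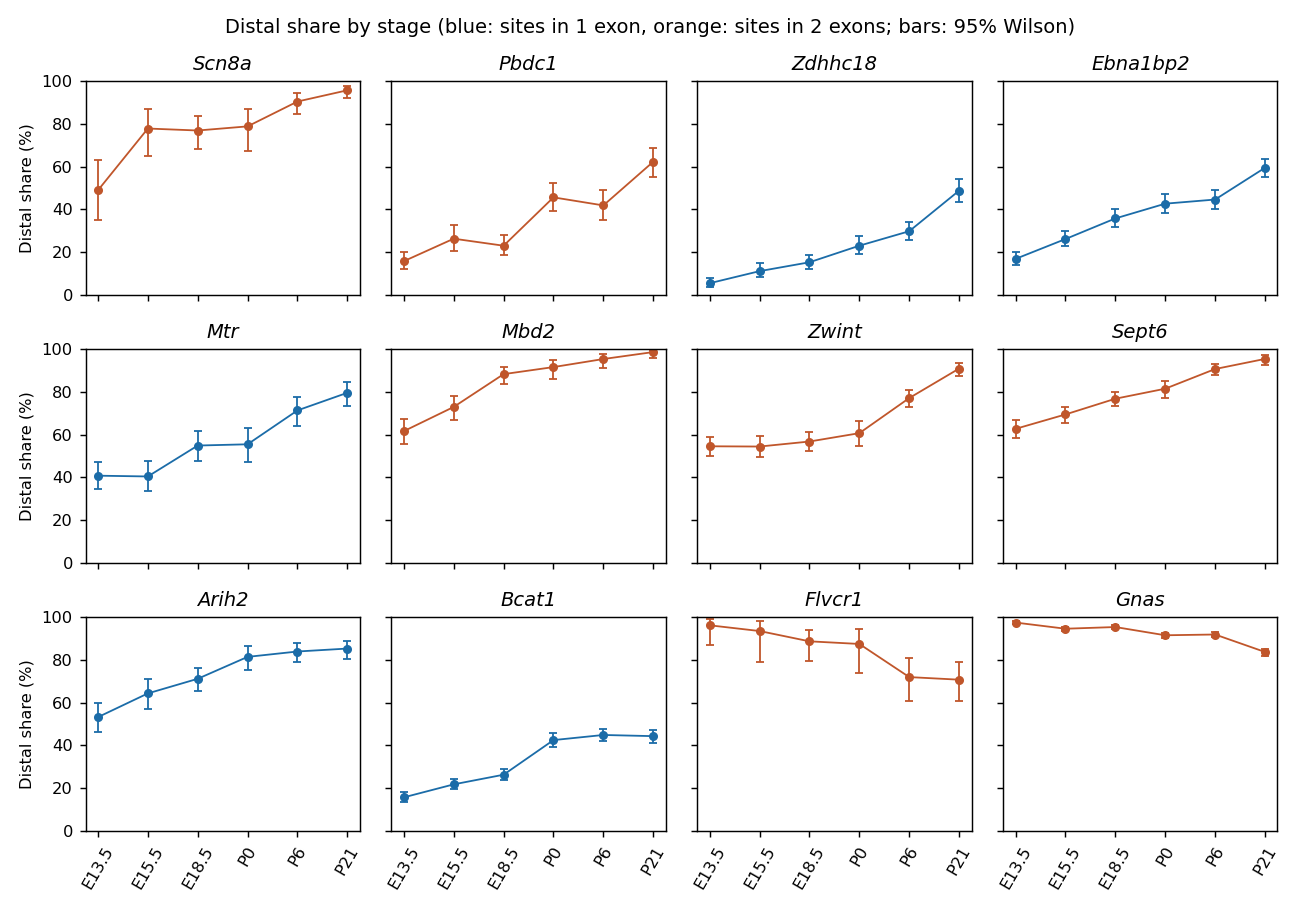
Distal share (percent, vertical axis) at each stage for the named long pairs that passed the test, 1 panel per gene, with 95% Wilson intervals as bars that cover counting error only. Ebna1bp2 and Mtr pass 50% between E13.5 and P21, and Gnas and Flvcr1 fall.

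Pairs in 2 exons held the largest differences of all pairs that passed. Scn8a, a voltage-gated sodium channel of axons, had a distal share of 48.9% at E13.5, 77.8% at E15.5 and 76.9% at E18.5, then 78.8% at P0, 90.4% at P6 and finally 95.7% at P21 (chr15, plus strand, 3′ edges at 101045926 (distal) and 100959936 (proximal)). The rise was steepest at the first step, and the ratio changed by 3.88 ± 0.64 (SE, adjusted p = 0.00755, edgeR). Tags at its distal site numbered 22 at E13.5, 42 at E15.5 and 83 at E18.5, then 52 at P0, 132 at P6 and finally 199 at P21. The distal site rose, while the proximal site held 9 tags at P21, against 23 at E13.5, and did not pass (adjusted p = 0.00234 and 0.269, edgeR). The gene as a whole rose too, by 1.45 ± 0.28 (SE, adjusted p = 0.0102, edgeR).

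In Pbdc1 the distal share was 15.7% at E13.5, 26.2% at E15.5 and 22.9% at E18.5, then 45.6% at P0, 41.8% at P6 and finally 62.2% at P21 (chrX, plus strand, 3′ edges at 105117089 (distal) and 105083487 (proximal)). It passed 50% only at P21 and did not rise at every step. The ratio changed by 2.94 ± 0.57 (SE, adjusted p = 0.0198, edgeR).

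Sept6, Zwint and Mbd2 had falling proximal ends. Sept6 encodes a septin, a filament protein of the cell cortex, and its distal share was 62.7% at E13.5, 69.4% at E15.5 and 76.8% at E18.5, then 81.5% at P0, 90.7% at P6 and finally 95.4% at P21. Tags at its proximal site numbered 198 at E13.5, 183 at E15.5 and 148 at E18.5, then 62 at P0, 47 at P6 and finally 15 at P21. This site fell by 3.46 ± 0.46 (SE, adjusted p = 0.00265, edgeR) in log2 level, while the distal site changed by -0.06 ± 0.25 (SE, adjusted p = 0.884, edgeR). The ratio changed by 3.39 ± 0.51 (SE, adjusted p = 0.0049, edgeR). Zwint, a kinetochore protein of dividing cells, had a distal share of 54.5% at E13.5, 54.4% at E15.5 and 56.8% at E18.5, then 60.7% at P0, 77.1% at P6 and finally 90.9% at P21, level before birth and higher after it. Its ratio changed by 2.73 ± 0.57 (SE, adjusted p = 0.0265, edgeR). In Mbd2, which encodes a protein that binds methylated DNA, the distal share was 61.6% at E13.5, 72.96% at E15.5 and 88.3% at E18.5, then 91.6% at P0, 95.4% at P6 and finally 98.6% at P21. This was the smallest adjusted p of the long pairs, with a ratio change of 5.18 ± 0.49 (SE, adjusted p = 0.000739, edgeR), and the proximal site held 3 tags at P21, against 99 at E13.5. Progenitor genes fell over the same stages, as given above, and their part in these values was not tested.

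Kif1b, a kinesin motor whose alternative ends are known to encode different cargo-binding tails, had a distal share of 82.3% at E13.5, 89.1% at E15.5 and 91.8% at E18.5, then 93.3% at P0, 96.02% at P6 and finally 96.2% at P21. It rose at every step on 926 or more tags, and the ratio changed by 2.43 ± 0.41 (SE, adjusted p = 0.00922, edgeR). Tkfc, a kinase of dihydroxyacetone, had 20.2% at P21, against 2.21% at E13.5. Trmt2a, a tRNA methyltransferase, had 97.5% at P21, against 89.5% at E13.5.

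Gnas and Flvcr1 went the other way. Gnas encodes the stimulatory G protein alpha subunit and other products of an imprinted locus, and had the most tags of all members, 12452 (chr2, plus strand, 3′ edges at 174346740 (distal) and 174338083 (proximal)). Its distal share was 97.5% at E13.5, 94.6% at E15.5 and 95.4% at E18.5, then 91.6% at P0, 91.9% at P6 and finally 83.8% at P21. The proximal end stayed the minor one in every library, and the ratio changed by -2.52 ± 0.37 (SE, adjusted p = 0.00445, edgeR). Tags at the proximal site numbered 62 at E13.5, 114 at E15.5 and 105 at E18.5, then 139 at P0, 160 at P6 and finally 311 at P21. This site rose by 2.01 ± 0.40 (SE, adjusted p = 0.00978, edgeR) in log2 level, while the distal site did not pass (adjusted p = 0.0643, edgeR). Flvcr1, a membrane transporter known for heme and choline, had a distal share of 96.2% at E13.5, 93.5% at E15.5 and 88.7% at E18.5, then 87.5% at P0, 72% at P6 and finally 70.8% at P21 (chr1, minus strand, 3′ edges at 191005848 (distal) and 191024922 (proximal)). Its proximal tags numbered 2 at E13.5, 2 at E15.5 and 8 at E18.5, then 5 at P0, 21 at P6 and finally 26 at P21. The first values thus rest on very few tags, and the ratio changed by -3.55 ± 0.76 (SE, adjusted p = 0.0284, edgeR).

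Calls toward the distal site came from either end. Among the 21 genes, the distal site rose and the proximal site did not pass in 9, the proximal site fell and the distal site did not pass in 10, and both passed in 2. Of the 546 distal sites of all long pairs, 125 rose (22.9%) and 29 fell (5.31%), and of 545 tested proximal sites 64 rose (11.7%) and 65 fell (11.9%), against 15% rising and 8.95% falling of all 32610 sites. Gene totals moved less in step with the choice of site, with 3 of the 21 genes rising and 2 falling. Of 545 tested genes of long pairs, 110 rose (20.2%) and 54 fell (9.91%), against 16.9% and 13% of all 14408 genes. Site and ratio values come from the same tags, so they are not separate evidence. Without P21, 98 of the long-pair sites passed in place of 283, and without E13.5 131 did and without E15.5 180. For genes these counts were 56, 87 and 96 in place of 164.

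**Figure D5:**
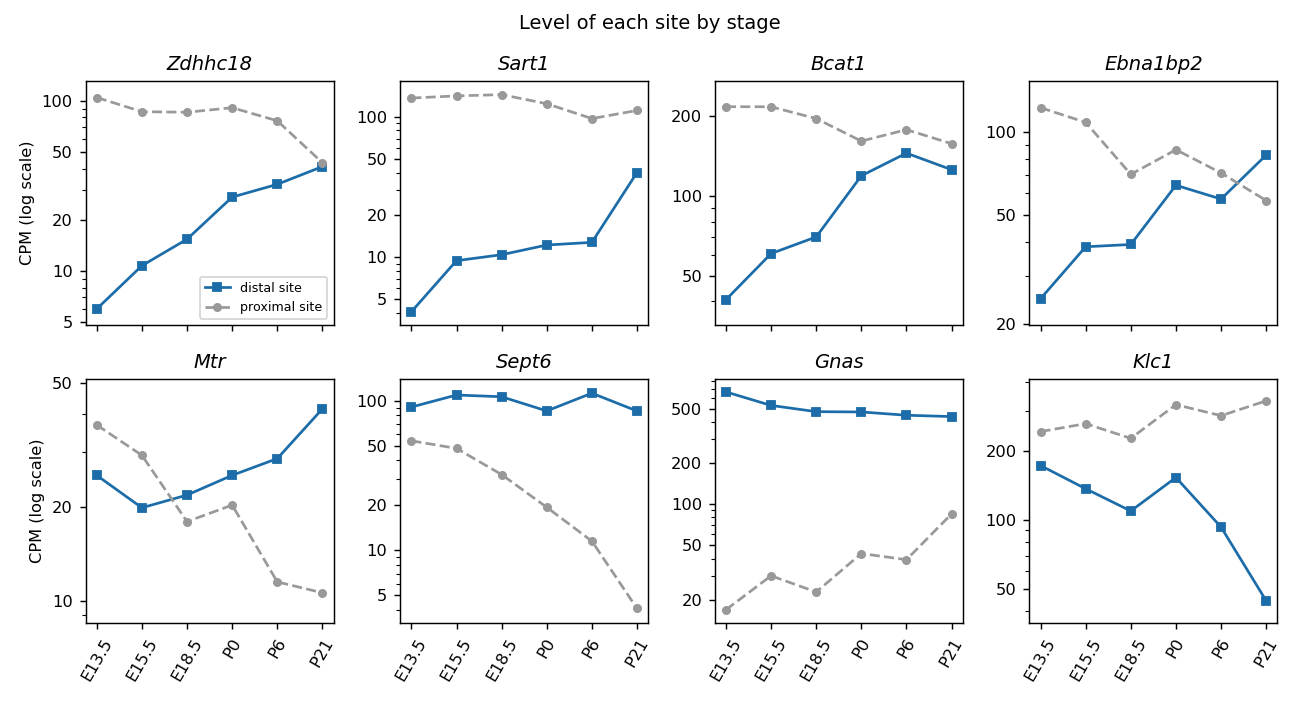
Level of the distal and the proximal site (CPM, log vertical axis) at each stage for 8 named members, 1 point per library without error bars. The distal site climbs in Zdhhc18, Sart1 and Bcat1, the proximal site drops in Sept6 and Mtr, and the proximal site climbs in Gnas.

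Members with the most tags besides Gnas did not pass the test. Klc1, the kinesin light chain, had a distal share of 41.6% at E13.5, 34.2% at E15.5 and 32.5% at E18.5, then 32.5% at P0, 24.6% at P6 and finally 11.8% at P21. The share was lowest at P21, where the distal site held 163 tags, against 635 at E13.5. The ratio change of -1.89 ± 0.48 (SE, adjusted p = 0.0589, edgeR) did not pass. It did with days after conception in place of stage order (adjusted p = 0.0075), without P0 (adjusted p = 0.0154), in DESeq2 (adjusted p = 0.000667) and in the edgeR fit with a term for each library (adjusted p = 0.0114). Over the alternatives its adjusted p ran up to 0.438, without P21. Syt11, a synaptotagmin of vesicle traffic, was nearly all distal at 92.2% at E13.5, 93.4% at E15.5 and 93.8% at E18.5, then 94.8% at P0, 93.3% at P6 and finally 96.5% at P21. These values lie within 5 points of each other. Prrc2b used both ends about equally, at 51.7% at E13.5, 51.03% at E15.5 and 49.6% at E18.5, then 51.6% at P0, 57.4% at P6 and finally 57.8% at P21. Hp1bp3, a heterochromatin protein, was mostly proximal at 7.86% at E13.5, 8.74% at E15.5 and 9.52% at E18.5, then 13.9% at P0, 16.1% at P6 and finally 15.3% at P21. Of these 3, none passed, with adjusted p values of 0.262, 0.573 and 0.15 (edgeR), and Hp1bp3 passed in DESeq2 (adjusted p = 0.0207) and in edgeR with the library term (adjusted p = 0.0218), with values up to 0.465 under the other alternatives.

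Some abundant pairs had nearly equal shares at the first and the last stage. Odf2, a protein of the centriole and basal body, had 68.9% at E13.5, 67.9% at E15.5 and 65.7% at E18.5, then 57.5% at P0, 70.3% at P6 and finally 69.1% at P21. Mxd4, a repressor that pairs with Max, had 90.03% at E13.5, 87.8% at E15.5 and 88% at E18.5, then 92.2% at P0, 85.1% at P6 and finally 89.9% at P21. Ccdc85b had 16.3% at E13.5, 18.1% at E15.5 and 20.6% at E18.5, then 25.4% at P0, 19.8% at P6 and finally 16.5% at P21. Each had 291 or more tags in every library and moved by at most 0.182 points between P21 and E13.5, but stages between varied by more than that.

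The widest pairs belonged to genes of neuronal membranes, all in 2 exons and none past the test. They were Gabrg3, a GABA receptor subunit, 461916 bases apart, Pcdh7, a protocadherin, 400331 bases apart, and Cacna2d1, a calcium channel subunit, 285484 bases apart. Their distal shares at P21 were 89.8%, 51.5% and 92.2%, against 77.4%, 9.23% and 68.8% at E13.5, on as few as 23 tags a library in Pcdh7. The members just inside the spacing threshold were Zfp68 at 1501, Pank1 at 1502 and Plpp6 at 1504 bases, with distal shares at P21 of 10.7%, 12.6% and 88.1%. Just outside it were Tbpl1 at 1499, Mastl at 1494 and Nr2f2 at 1492 bases, with 56.0%, 87.5% and 53.1%.

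Of a list of 51 genes that make or read 3′ ends, 50 were found under the symbol listed. The entry Symp was not found under that symbol and was not tested, which does not show that the gene was unmeasured. Of the 50, 6 rose (12%, against 16.9% of all genes), 8 fell (16%, against 13% of all genes) and 36 did not pass (edgeR on gene totals). These shares lie near those of all genes. The median fitted log2 change of the list was -0.20, against -0.03 over all genes. Mbnl1 and Mbnl2, muscleblind RNA-binding proteins of splicing and 3′ end choice, rose by 2.14 ± 0.44 and 1.56 ± 0.25 in log2 level (SE, adjusted p = 0.0126 and 0.00568, edgeR). Cpeb1, Cpeb3, Rbfox1 and the cleavage factor gene Pcf11 rose too. Elavl4, of the neuronal Hu proteins that bind AU-rich RNA, fell by 2.01 ± 0.27 (SE, adjusted p = 0.0039, edgeR), and Elavl2, Elavl3, Ptbp1, Ago1, Ago2 and the cleavage endonuclease gene Cpsf3 were among the others that fell. Nudt21, a cleavage factor subunit whose complex is known to favour distal sites, was at 10.1 CPM at P21, against 37.6 CPM at E13.5, and did not pass (adjusted p = 0.0504, edgeR).

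A further 3 genes of that list were themselves members. Rbfox2, a splicing regulator, had a distal share of 74.8% at E13.5, 75.5% at E15.5 and 74.1% at E18.5, then 80.9% at P0, 82.7% at P6 and finally 87.2% at P21. Celf1, which binds GU-rich 3′ UTRs, was mostly distal at 88.9% at E13.5, 89.2% at E15.5 and 91.6% at E18.5, then 96.3% at P0, 93.1% at P6 and finally 94.7% at P21. Nova1, a neuronal splicing regulator, was mostly proximal at 15.3% at E13.5, 9.46% at E15.5 and 14.02% at E18.5, then 13.2% at P0, 12.2% at P6 and finally 9.97% at P21. The ratio changes of 1.19 ± 0.47, 1.28 ± 0.43 and -0.35 ± 0.58 (SE) did not pass (adjusted p = 0.229, 0.145 and 0.867, edgeR).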

How the data were processed

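Per the file headers, the authors deposited 1 table with counts of tags per poly(A) site in 12 columns, 2 for each of 6 stages, and a score per site that was not used in any test. BWA 0.7.5a-r405 and the build mm10 are named per the submitters' processing notes. The clustering of sites, the handling of duplicates and the meaning of the 2 columns of a stage are not given in the sources used here. The columns were summed per stage and never used as replicates, and no column was left unmapped. The libraries held 3286158 to 4656153 tags, and a library's total limits the precision of each share, which is given with its 95% Wilson interval where printed.

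Sites were placed on GENCODE M21 by their 3′ edge, in a gene or up to 1000 bases downstream of it. The choice between sites was tested by diffSpliceDGE in edgeR 4.0.16 in R 4.3.3 on tag counts of all pairs, with TMM scaling and stage order 1 to 6 as a linear term, so that a bend over stages counts as spread. Fitted changes cover the 5 steps from E13.5 to P21. The SE is the size of the change divided by the square root of F. Abundance was tested with edgeR's quasi-likelihood F test over all sites and genes that reached 1 CPM in 2 or more libraries. Benjamini-Hochberg adjustment ran over every feature tested, and 0.05 or less was called. The scripts were tested on simulated data. DESeq2 1.42.0 was an alternative, as were single columns, days after conception, other scaling and limits, and leaving out libraries.

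Poly(A) signals and motifs were searched in GENCODE M21 transcripts only. The seed of mmu-miR-124-3p was not searched. A few genes of the lists are not reported here.

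The members, lists and named genes were chosen with earlier results of these data known. Named were the called members with the largest change (up to 10 in each direction, at least 20 tags in every library), the 5 with the most tags, the 3 widest, 3 on each side of the spacing threshold, the 3 least changed among abundant members and members of the factor list. The other called members were named to complete the count, after their values were seen.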

Additional observations from a re-analysis of the deposited data

How the results depend on the processing

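No paired analysis was possible because each stage had 1 labelled sample, and the meaning of R1 and R2 in the column names is not given in the sources used here. With 1 library left out at a time, the called long pairs ranged from 0 (without E13.5) to 32 (without P0) in place of 23, all pairs of the series from 1 to 212 in place of 164, long-pair sites called in abundance from 98 to 335 in place of 283, and long-pair genes from 56 to 189 in place of 164. The first column of each stage alone gave 14 long pairs and 79 of all pairs, and the second column gave 17 and 108. DESeq2 gave 39 and 332. Alternatives chosen after seeing the data were edgeR with a term for each library (43 and 347), the same without E13.5 (9) or without P21 (9), leaving out E15.5 and P0 (6 and 30), and pairs in 1 exon alone (13). Stage order replaced by days after conception, other size factors, higher or no tag limits and other spacing limits left the count of long pairs within 1.5 times of 23. The 23 called pairs kept their direction, in fits that reuse the tags by which they were chosen. Among named pairs that did not pass, 8 changed the sign of their fitted log2 ratio change, never past the threshold. With 1 library left out at a time they ranged from -1.19 to 0.017 (Plpp6), -0.43 to 0.22 (Odf2), -0.22 to 0.65 (Ccdc85b), -0.16 to 0.61 (Pank1), -0.45 to 0.24 (Mxd4), -0.29 to 2.93 (Pcdh7) and -0.18 to 1.03 (Zfp68). The first columns gave -0.047 for Pank1 and 0.054 for Mxd4, and the second 0.076 for Odf2, -0.29 for Zfp68 and -0.16 for Gabrg3. Days after conception gave 0.26 for Odf2, -0.23 for Ccdc85b and -0.082 for Pank1, and leaving out E15.5 and P0 gave 0.11 for Odf2 and -0.17 for Pank1. Of the 23 called pairs, 22 passed in DESeq2 and 22 with the library term, 12 with days after conception, 13 with the first columns and 15 with the second. Ptgfrn lost its call with the library term. The cause of these differences was not tested, apart from fewer libraries or tags where data were left out. Depth limits the shares of the smallest members, since 481 of 546 had at least 20 tags in every library.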

Other observations

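Some long pairs differed widely between P21 and E13.5 without passing the test, and 4 of them are named here after their values were seen. Map6, which encodes a microtubule-stabilizing protein of neurons, had a distal share of 35.6% at E13.5, 37.9% at E15.5 and 34.9% at E18.5, then 48.1% at P0, 56.5% at P6 and finally 80.9% at P21. The widest step was the last, where the proximal site held 116 tags at P21, against 449 at P6. The ratio change was 2.46 ± 0.69 (SE, adjusted p = 0.0856, edgeR), and it passed in the edgeR fit with a term for each library (adjusted p = 0.0119). Baiap2, a scaffold of dendritic spines and filopodia, had a lower distal share at the last stage, at 89.8% at E13.5, 79.8% at E15.5 and 81.2% at E18.5, then 75.5% at P0, 77.1% at P6 and finally 51.4% at P21. Its adjusted p was 0.088, or 0.0296 with the library term (edgeR), and its proximal site rose by 2.53 ± 0.44 (SE, adjusted p = 0.00598, edgeR) in log2 level.

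In 1 exon, Tpmt, an enzyme that methylates thiopurines, had a distal share of 25% at E13.5, 16% at E15.5 and 28.6% at E18.5, then 35.7% at P0, 55.6% at P6 and finally 66.7% at P21 on 21 or more tags a library. Grik4, a kainate receptor subunit, had 7.50% at E13.5, 7.02% at E15.5 and 15.5% at E18.5, then 10.3% at P0, 30% at P6 and finally 40% at P21 on 35 or more tags. Their adjusted p values were 0.0952 and 0.0547 (edgeR), and with the library term 0.0423 and 0.0375. With that term 21 further long pairs passed beyond those of the test by stage order alone. Of the 546 long pairs, 35 thus moved toward the distal and 8 toward the proximal site. Over all 6266 pairs that fit gave 254 (4.05%) and 93 (1.48%), so the proximal share of the long pairs lay near that of all pairs.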
